A study of Mus musculus with 19 samples.

Results

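The 10 apolipoprotein genes Apoa1, Apoa2, Apoa4, Apoa5, Apob, Apoc1, Apoc2, Apoc3, Apoe and Apom, were followed mouse by mouse in liver across a reproductive cycle. They were chosen by gene symbol, and each of the 10 symbols was found once among the 51826 gene entries of the expression table. All 10 were among the 16230 entries that could be tested, those whose mean over the mice reached 0.1 TPM (transcripts per 1000000 transcripts, a share of all transcripts in a sample that takes gene length into account). The animals were 19 female Balbc mice, 12 weeks old by the labels. Of them 7 (NUL, n = 7) were nulliparous, 6 (LAC, n = 6) were at lactation day 10, and 6 (ID6, n = 6) were at involution day 6, the period after weaning in which the enlarged liver of lactation regresses. The mice came from Charles River and Jackson Laboratory, and which mouse came from which is not given in the sources used here. RNA came from pieces of flash frozen liver, so a level is an average over all the cells of the piece.

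Apolipoproteins are the proteins that coat lipoprotein particles and carry cholesterol and triglyceride through blood. Apob is the scaffold of very low density lipoprotein, Apoa1 and Apoa2 are the main proteins of high density lipoprotein (HDL), and Apoe is the ligand by which remnants are taken up through receptors on the cell surface. Smaller proteins tune lipoprotein lipase, the enzyme that releases fatty acids from circulating triglyceride: Apoc2 activates it, Apoc3 and Apoc1 restrain triglyceride clearance, and Apoa5 promotes it. During lactation the mammary gland draws fatty acids from circulating triglyceride into milk, and weaning ends that demand.

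The livers expressed hepatocyte markers strongly. The summed level of 9 measured hepatocyte markers, among them Alb and Ttr, was 55495 to 86630 TPM in NUL, 91651 to 144321 TPM in LAC and 72428 to 101166 TPM in ID6. The higher sum in LAC was not shared by the list. From NUL to LAC the log2 fold change was positive for 4 of the 9 and negative for 5. Only Alb passed in limma (0.86, adjusted p = 0.00137). The mice also separated by animal number, which the labels give without saying what it marks: 6 mice had numbers under 200 (3 NUL and 3 LAC) and 13 had numbers of 200 and above (4 NUL, 3 LAC and 6 ID6). At an adjusted p under 0.05 in limma, 25.6% of all genes tested differed between these ranges among NUL and LAC mice. Because ID6 had 0 mice under 200, ID6 comparisons of the 10 genes were repeated without the 6 mice under 200, as were those of other genes where this ended a call.

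Apoe was the most abundant of the 10 transcripts, with rank 3 by mean TPM among all genes in these livers. Apoa2 and Apoc1 ranked 4 and 5, Apoa1 ranked 9 and Apoc3 ranked 11. Levels were far lower for Apoa5 (rank 123), Apob (rank 151), Apoc2 (rank 315), Apoa4 (rank 361) and Apom (rank 421). In this order Apoc1 was above Apoa1, Apoc3 above Apoa5 and Apob above Apoc2 in 19 of 19 mice. Other neighbours exchanged places between mice. Apoa2 exceeded Apoe in 5 mice, which were all numbered under 200, and Apoc3 exceeded Apoa1 in 7 mice. In LAC, Apob exceeded Apoa5 in 4 of 6 mice, against 1 of 7 NUL mice and 0 of 6 ID6 mice. Apoc2, Apoa4 and Apom overlapped in level, with Apoa4 above Apom in 6 of 6 ID6 mice but in 3 of 7 NUL and 3 of 6 LAC mice.

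**Figure D1:**
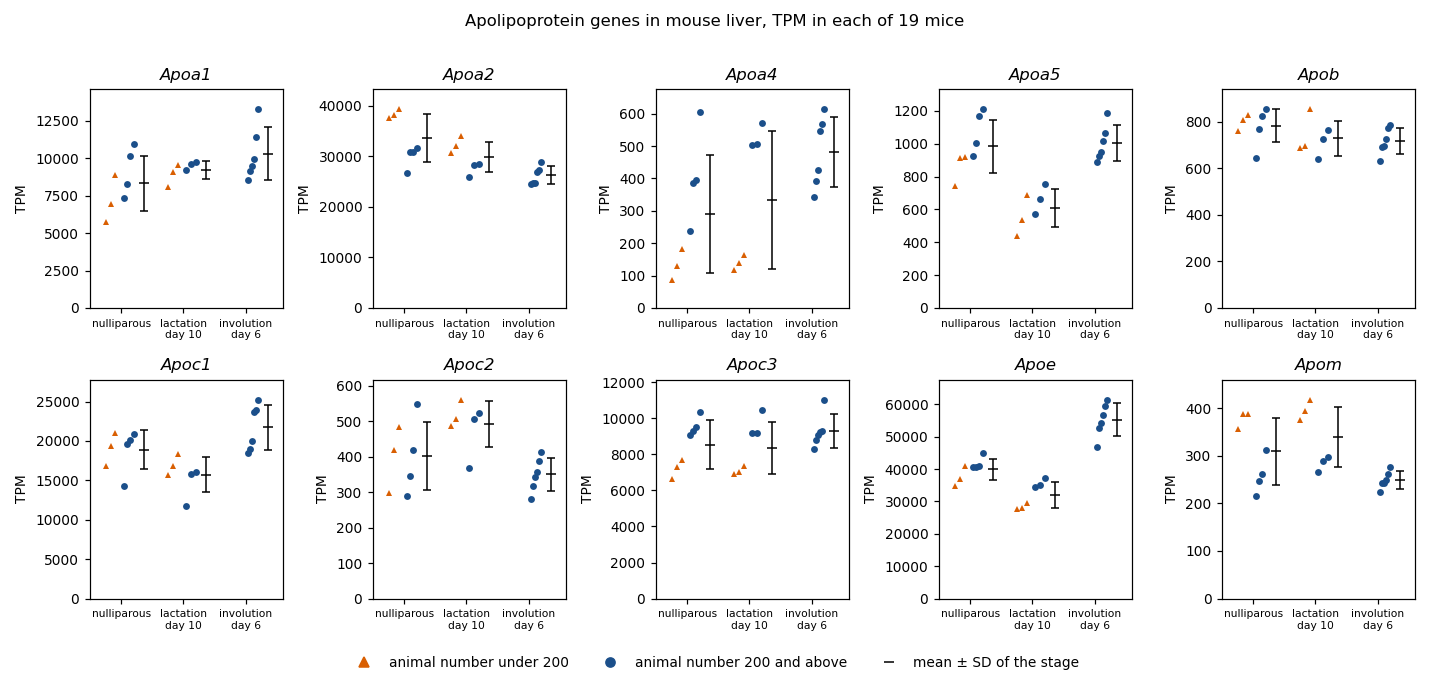
TPM of each apolipoprotein gene (y axis, from 0) in every mouse, by stage (x axis); triangles are mice numbered under 200, circles mice numbered 200 and above, and bars the mean ± SD of the stage. Apoe in ID6 lies above every other mouse, Apoa5 is lowest in LAC, and Apoa4 separates triangles from circles in NUL and LAC.

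Together the 10 genes held 11.2% ± 0.326 (SD, n = 7) of all TPM in NUL, 9.78% ± 0.387 (n = 6) in LAC and 12.6% ± 0.534 (n = 6) in ID6. The ranges over mice, 10.7 to 11.5% in NUL, 9.31 to 10.4% in LAC and 11.8 to 13.4% in ID6, did not overlap. Apoe alone held 3.998% ± 0.327 of TPM in NUL, 3.20% ± 0.404 in LAC and 5.53% ± 0.517 in ID6. Of the 27823 TPM by which the summed mean was higher in ID6 than in LAC, Apoe held 83.4% and Apoc1 21.5%, offset by Apoa2, which was lower in ID6. These shares are descriptions without a test. TPM sum to the same total in each mouse, so a gene this abundant lowers the TPM of the others when it rises.

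**Figure D2:**
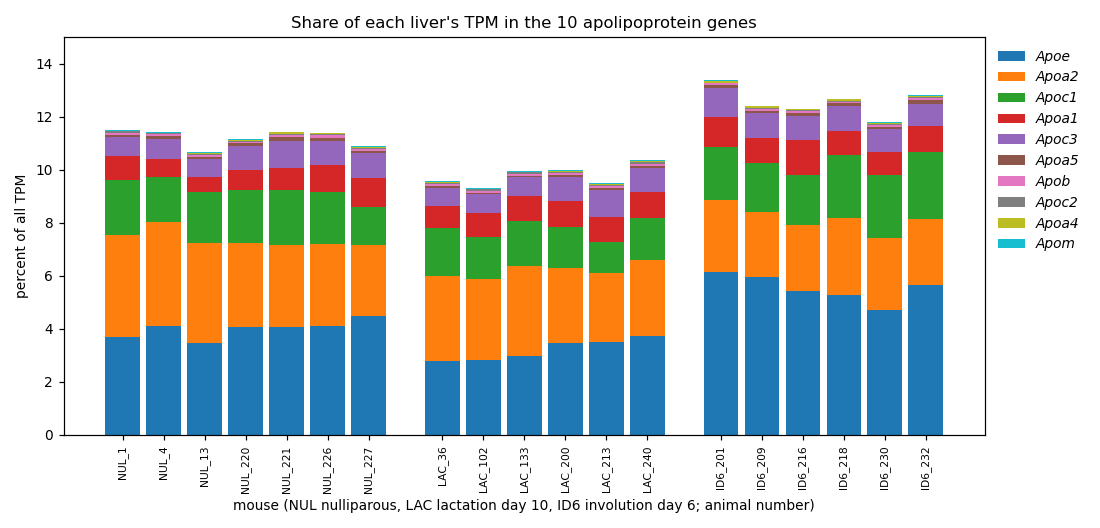
Share of each liver's TPM (y axis, percent) taken by the 10 genes in each of 19 mice (x axis), stacked by gene from the most to the least abundant. The stacks are lowest in LAC (9.31 to 10.4%) and highest in ID6 (11.8 to 13.4%), and the Apoe segment is the tallest one in every ID6 mouse.

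The comparisons between stages ask how the liver transcriptome differs in lactation from the nulliparous state, and how it differs after weaning. They share mice, so they are not independent of each other. From NUL to LAC 1 of the 10 genes changed, Apoa5, which fell. Over all genes tested 9.21% changed in this comparison, 2.72% of them upward and 6.49% downward. The 10 genes had a median log2 fold change of −0.07, against −0.03 for all genes. From LAC to ID6 5 of the 10 changed: Apoe, Apoa5 and Apoc1 rose, and Apoc2 and Apom fell, against 22.8% of all genes (18.1% up, 4.73% down). Their median was 0.16, against 0.10 for all genes. Between ID6 and NUL 1 changed, Apoe, which was higher in ID6, where 4.36% of all genes changed and 3.44% were higher. The median of the 10 was 0.09 and that of all genes 0.07. None of the 10 changed 2-fold or more, as 0.746%, 1.93% and 0.253% of all genes did in the 3 comparisons. At an unadjusted p under 0.05 in limma, 4, 5 and 4 of the 10 differed, as did 3748, 5721 and 4077 of the 16230 genes tested.

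**Figure D3:**
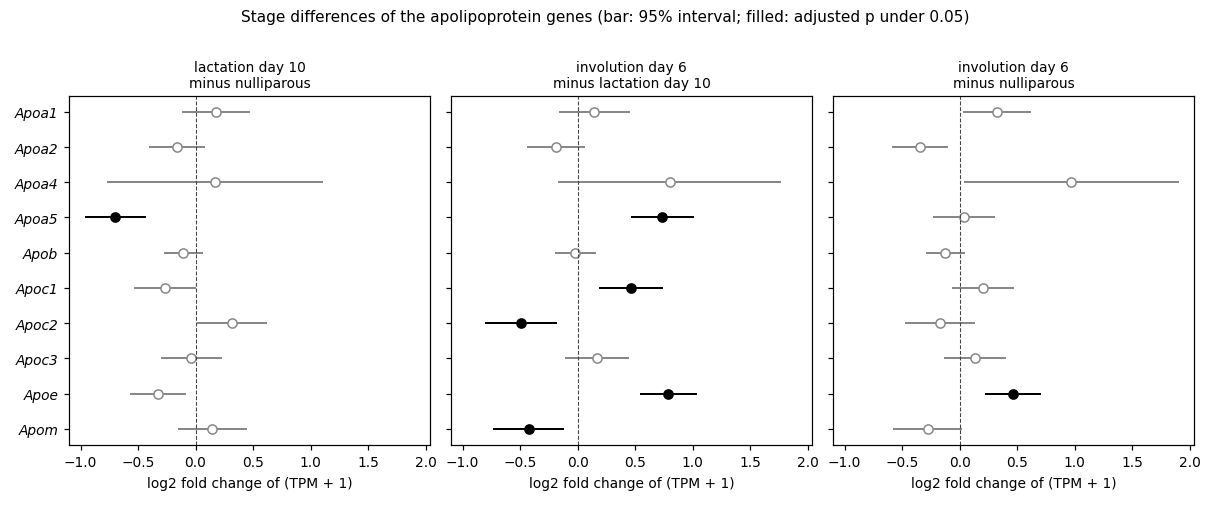
Log2 fold change of (TPM + 1) with its 95% interval (x axis) for each of the 10 genes (y axis) in the comparisons of LAC with NUL, ID6 with LAC and ID6 with NUL; filled points passed an adjusted p of 0.05. Apoe and Apoa5 lie furthest to the right among filled points from LAC to ID6, and Apoa4 has the widest intervals.

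Of the 10 genes, 7 lie in a pair of clusters. On GRCm38 with GENCODE release M21 genes, Apoc2 (chr7:19671579-19677941), Apoc1 (chr7:19689481-19692660) and Apoe (chr7:19696109-19699188) lie on the minus strand, with Apoc4 between Apoc2 and Apoc1, in 27.61 kb. Apoa1 (chr9:46228580-46230466), Apoc3 (chr9:46232933-46235636, minus strand), Apoa4 (chr9:46240696-46243459) and Apoa5 (chr9:46268633-46271919) lie in 43.34 kb. Apoa2 (chr1:171225054-171226379), Apob (chr12:7977648-8016835) and Apom (chr17:35128997-35132050, minus strand) stand alone. The sequences upstream of the start are printed for the 3 genes whose stage differences are described most closely and whose start is the same in RefSeq and GENCODE. They are RefSeq sequences on GRCm38.p6, read 5′ to 3′ on the gene's strand, and capitals mark matches to the motifs named after them. Apoe spans chr7:19699189-19699438 (minus strand), Apoc2 spans chr7:19677942-19678082 (minus strand, cut short at the 3′ end of Apoc4) and Apoa5 spans chr9:46268383-46268632 (plus strand).
Apoe: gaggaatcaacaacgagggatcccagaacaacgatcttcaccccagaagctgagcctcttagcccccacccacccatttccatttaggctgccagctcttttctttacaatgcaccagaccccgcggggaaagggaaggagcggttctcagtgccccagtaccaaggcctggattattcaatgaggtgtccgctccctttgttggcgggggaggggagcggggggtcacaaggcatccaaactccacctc
Apoc2: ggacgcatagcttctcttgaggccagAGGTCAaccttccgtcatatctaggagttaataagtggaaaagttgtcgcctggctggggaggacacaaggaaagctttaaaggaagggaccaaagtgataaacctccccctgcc
Apoa5: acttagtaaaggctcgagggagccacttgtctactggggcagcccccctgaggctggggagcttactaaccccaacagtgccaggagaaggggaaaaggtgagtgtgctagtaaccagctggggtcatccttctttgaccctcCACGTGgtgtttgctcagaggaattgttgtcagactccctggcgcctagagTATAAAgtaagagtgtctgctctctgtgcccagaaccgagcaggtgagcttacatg

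A set of 5 motifs was searched on both strands in the 250 bases upstream of 32851 RefSeq starts; entries were found for 8 of the 10 genes, and Apoc1 and Apoc3 had none. In Apoa5 the TATA box letters TATAAA, which are in 12.4% of all regions, lay 56 bases before the start, and the E-box CACGTG, in 6.02% of all regions, lay 107 bases before it. Apoc2 held the nuclear receptor half-site AGGTCA, in 14.0% of all regions, 115 bases before the start. Apoe held none of the 5 motifs. Over the 8 genes, TATAAA was found in 3 (Apoa2, Apoa5 and Apob), CCAAT in 1 (Apoa2) and the HNF4 core CAAAGTC in 0, against 33.9% and 3.84% of all regions for the last 2 motifs. No match of 1 motif overlapped a match of another in the printed sequences. For Apoa1, Apoa4, Apob and Apom the RefSeq start differs from the GENCODE start, so their windows are offset from the positions above.

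Apoe was highest after weaning. Its lowest, median and highest values were 34658, 40727 and 44894 TPM in NUL, 27813, 32037 and 37220 TPM in LAC, and 46967, 55464 and 61492 TPM in ID6. Every ID6 mouse was above every NUL and every LAC mouse. Groups did not overlap, upward or downward, for 11.5% of all genes between ID6 and LAC, as for 3 of the 10 (Apoe, Apoa5 and Apoc1), and for 2.38% between ID6 and NUL, as for Apoe. Between LAC and NUL they overlapped for each of the 10 and were apart for 3.27% of all genes. The mean in ID6 (55256 ± 5172 TPM, n = 6) was 1.72-fold that in LAC (32045 ± 4043 TPM, n = 6), and the fitted log2 fold change was 0.79 (SE 0.12, 95% interval 0.55 to 1.03, adjusted p = 8.74e-05 in limma). Among mice numbered 200 and above it was 0.63 (adjusted p = 0.00691), with the groups again apart, as for 17.9% of all genes.

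From NUL (39981 ± 3271 TPM, n = 7) to LAC the log2 fold change of Apoe was −0.32 (SE 0.11, adjusted p = 0.0746), which missed the threshold, and 6 of 6 LAC mice were below the NUL mean. Of the 10 alternatives besides leaving out a mouse, it passed in 3. They were the range of animal number in the fit (−0.31, adjusted p = 0.0245), a mean of at least 1 TPM (adjusted p = 0.0309) and robust moderation (adjusted p = 0.0204). It did not pass with median-ratio scaling (−0.28, adjusted p = 0.250), with quantile normalization (−0.083, adjusted p = 0.775) or among mice numbered 200 and above (−0.23, adjusted p = 0.408). In those mice LAC (34455 to 37220 TPM) lay below NUL (40574 to 44894 TPM), and 19.8% of all genes were as fully separated.

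Apoe in ID6 was 1.38-fold that in NUL (log2 0.47, SE 0.11, adjusted p = 0.0281). This call was lost among mice numbered 200 and above (0.40, adjusted p = 0.186), where the groups were still apart, as for 3.43% of all genes, with the range in the fit (0.37, adjusted p = 0.0648), with median-ratio scaling of the mice (0.35, adjusted p = 0.175) and with no filter on low genes (0.47, adjusted p = 0.286). It was also lost without 1 of 6 mice in turn: NUL_1 (adjusted p = 0.0726), NUL_13 (0.0658), ID6_201 (0.0559), ID6_209 (0.0682), ID6_216 (0.0507) and ID6_232 (0.0609).

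Macrophages also make Apoe, and their markers moved with it. The summed level of 10 Kupffer cell and macrophage markers was 215 to 406 TPM in NUL, 146 to 289 TPM in LAC and 472 to 631 TPM in ID6, with 0 of the 10 at 0 TPM. Of the 10, 8 fell from NUL to LAC, and 10 of 10 rose both from LAC to ID6 (median log2 fold change 1.22) and from NUL to ID6 (0.71). The part of these cells in the level of Apoe was not tested. In whole tissue, fewer cells of a type and less RNA per cell cannot be told apart. In NUL, LAC and ID6, sums of other leukocyte markers were 6.83 to 23.7, 6.22 to 12.4 and 20.4 to 27.2 TPM. Those for stellate cells were 162 to 204, 115 to 137 and 162 to 207 TPM, and for sinusoidal endothelium 182 to 241, 109 to 184 and 245 to 267 TPM. These sums were higher in ID6 than in LAC, but that of stellate cells was much the same in NUL as in ID6. Red blood cell sums were lower in ID6, with medians of 1486, 2119.65 and 279 TPM in the same order.

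Apoc1, whose gene neighbours Apoe, also rose after weaning. It had a lowest, median and highest value of 14272, 19582 and 21043 TPM in NUL, 11720.5, 15946 and 18287 TPM in LAC, and 18502.5, 21782 and 25256 TPM in ID6. ID6 was above LAC without overlap, by a narrow margin, and both overlapped NUL. From LAC to ID6 the log2 fold change was 0.47 (SE 0.13, 95% interval 0.20 to 0.74, adjusted p = 0.0139), or 1.38-fold, and it was 0.58 (adjusted p = 0.0340) among mice numbered 200 and above. Median-ratio scaling (0.31, adjusted p = 0.166), quantile normalization (0.34, adjusted p = 0.133) and no filter (0.47, adjusted p = 0.0931) each ended the call. It was −0.26 (SE 0.12, adjusted p = 0.207) from NUL to LAC and 0.20 (SE 0.12, adjusted p = 0.317) from NUL to ID6, or 0.22 (adjusted p = 0.634) among mice numbered 200 and above.

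Apoc2, the activator of lipoprotein lipase at the other end of the same cluster, went the opposite way. Its lowest, median and highest values were 289.5, 419 and 548 TPM in NUL, 368, 506 and 561 TPM in LAC, and 282, 351 and 412 TPM in ID6. LAC and ID6 overlapped only through 1 LAC mouse, LAC_213 at 368 TPM, which was also the lowest LAC mouse for Apoc1. Apoc2 fell from LAC to ID6 by 0.49 on the log2 scale (SE 0.15, 95% interval −0.79 to −0.18, adjusted p = 0.0209), to 0.713 of its level. The fall was 0.40 among mice numbered 200 and above (adjusted p = 0.168) and 0.45 with the range in the fit (adjusted p = 0.0675), which ended the call. Its log2 fold change from NUL to LAC was 0.32 (SE 0.14, adjusted p = 0.173), and from NUL to ID6 it was −0.17 (SE 0.14, adjusted p = 0.462), or −0.16 (adjusted p = 0.764) among mice numbered 200 and above.

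The ratio of Apoc1 to Apoc2 TPM sets these neighbours side by side within each mouse, so that scaling between mice cancels. It was 48.3 ± 7.06 (38.1 to 58.2) in NUL, 31.9 ± 0.903 (30.7 to 33.2) in LAC and 62.6 ± 9.28 (46.0 to 70.8) in ID6. LAC mice lay below all others. Their coefficient of variation was 2.83%, against 14.6% in NUL and 14.8% in ID6, although their levels of Apoc1 and Apoc2 varied between mice, from 11720.5 to 18287 and from 368 to 561 TPM. In mice numbered under 200, then 200 and above, the mean ratio was 48.7 and 48.0 in NUL and 32.6 and 31.3 in LAC. The ratio was examined after the levels of both genes were known and is given without a test. In the annotation Apoc2 shares 646 exonic bases, 79.5% of its own, with Gm44805, a gene model on the same strand that starts within Apoc4. The division of reads between Apoc2 and Gm44805 is therefore uncertain. Gm44805 was at 48.6 to 72.0 TPM over the 19 mice.

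**Figure D4:**
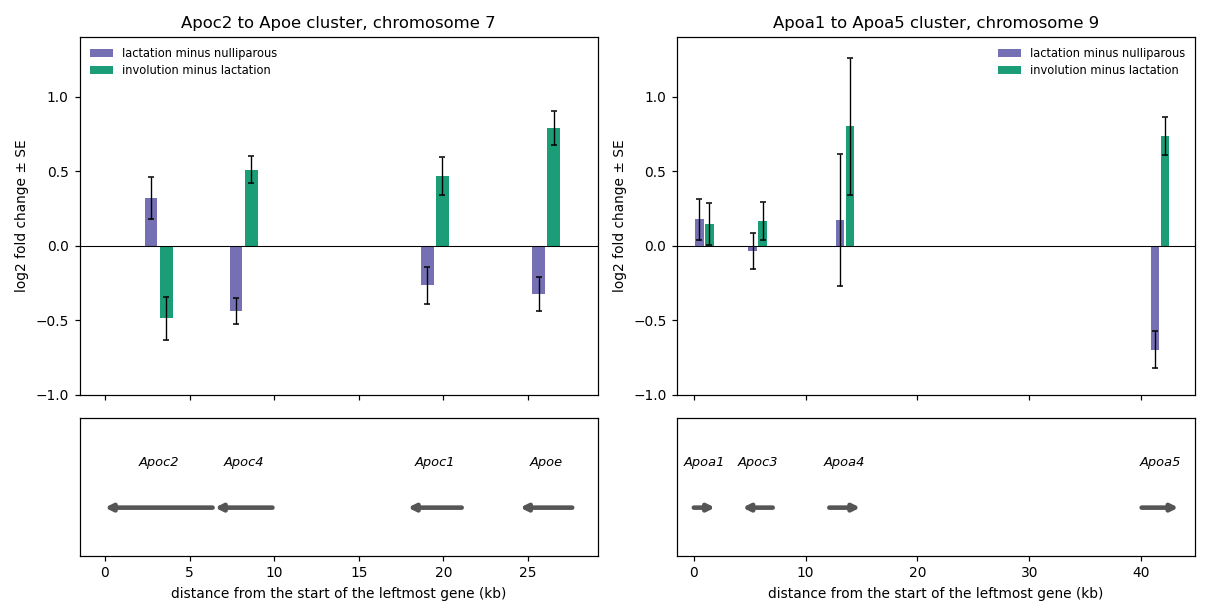
Log2 fold change ± SE of (TPM + 1) (y axis) from NUL to LAC and from LAC to ID6 for the genes of both clusters, drawn at each gene's distance from the start of the leftmost gene (x axis, kb), above arrows for the genes and their strands. On chromosome 7 Apoc2 points the opposite way to Apoc4, Apoc1 and Apoe, and on chromosome 9 Apoa5 has the only fall in LAC that passed the test.

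Apoa5, which promotes triglyceride clearance by lipoprotein lipase, was lowest in lactation. It had a lowest, median and highest value of 745, 926 and 1212 TPM in NUL, 439.6, 617 and 754 TPM in LAC, and 888, 983 and 1188 TPM in ID6. LAC overlapped NUL only where its highest mouse (LAC_240 at 754 TPM) passed the lowest NUL mouse (NUL_1 at 745 TPM), and it lay wholly below ID6. From NUL (984 ± 161 TPM, n = 7) to LAC (609 ± 114 TPM, n = 6) Apoa5 fell by 0.70 on the log2 scale (SE 0.12, 95% interval −0.96 to −0.44, adjusted p = 0.00143), to 0.617 of its level. From LAC to ID6 (1005 ± 111 TPM, n = 6) it rose by 0.74 (SE 0.13, 95% interval 0.47 to 1.01, adjusted p = 4.25e-04), or 1.67-fold.

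Between ID6 and NUL the log2 fold change of Apoa5 was 0.04 (95% interval −0.22 to 0.30, adjusted p = 0.867), and −0.098 (adjusted p = 0.783) among mice numbered 200 and above. In those mice the change was −0.70 from NUL to LAC (adjusted p = 0.00582) and 0.60 from LAC to ID6 (adjusted p = 0.00409). The groups did not overlap in either, as for 19.8% and 17.9% of all genes in those mice. Both calls passed in each of the 19 fits without 1 mouse, with adjusted p up to 0.00447 and 0.00148. Apoa5 shares 524 exonic bases, 20.8% of its own, with the antisense model Gm47544, and the strand setting of the counting is not given in the sources used here.

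Of the HDL proteins Apom, Apoa2 and Apoa1, only Apom passed the test, in the comparison of ID6 with LAC. Apom, the HDL protein that carries sphingosine-1-phosphate, had a lowest, median and highest value of 215, 311 and 388 TPM in NUL, 267, 336 and 418 TPM in LAC, and 223, 246 and 277 TPM in ID6. The ID6 mice lay close together and within the range of NUL. Apom fell from LAC to ID6 by 0.43 on the log2 scale (SE 0.14, adjusted p = 0.0382), with 6 of 6 ID6 mice below the LAC mean. The fall was 0.19 among mice numbered 200 and above (adjusted p = 0.245), 0.17 with the range in the fit (adjusted p = 0.177) and 0.38 with TPM rescaled without the 10 genes (adjusted p = 0.0525). With no filter adjusted p was 0.0663. From NUL to ID6 the log2 fold change was −0.28 (adjusted p = 0.214) over all mice and −0.043 (adjusted p = 0.902) among those numbered 200 and above. Leaving out 1 mouse ended the call for LAC_102, LAC_133, LAC_36, ID6_201, ID6_209, ID6_216, ID6_218 and ID6_232, with adjusted p of 0.0533 to 0.0947.

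Apoa2 was lowest after weaning, without passing the test. Its lowest, median and highest values were 26691, 31651 and 39406 TPM in NUL, 25970.1, 29639 and 34086 TPM in LAC, and 24627, 25893 and 28874 TPM in ID6. The stages overlapped, and 6 of 6 ID6 mice were below the NUL mean. Its log2 fold change was −0.35 (SE 0.11, adjusted p = 0.0771) from NUL to ID6, −0.16 (adjusted p = 0.425) from NUL to LAC and −0.19 (adjusted p = 0.260) from LAC to ID6. Without NUL_227, the lowest of its group, the difference from NUL to ID6 passed (−0.40, adjusted p = 0.0340). Of the 10 alternatives besides leaving out a mouse, this difference passed in 2. They were a mean of at least 1 TPM (adjusted p = 0.0413) and robust moderation (adjusted p = 0.0369). The difference was −0.22 with the range in the fit (adjusted p = 0.236) and −0.19 among mice numbered 200 and above (adjusted p = 0.522). From LAC to ID6 the same fits gave −0.039 (adjusted p = 0.826) and −0.074 (adjusted p = 0.732).

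Apoa1 had a lowest, median and highest value of 5731, 8253 and 10921 TPM in NUL, 8101, 9367 and 9738 TPM in LAC, and 8529, 9719 and 13287 TPM in ID6. The 3 stages overlapped, and the LAC mice were the closest together, with a coefficient of variation of 6.54% against 22.0% in NUL and 17.1% in ID6. The log2 fold change was 0.18 (adjusted p = 0.485) from NUL to LAC, 0.15 (adjusted p = 0.494) from LAC to ID6 and 0.32 (SE 0.14, adjusted p = 0.157) from NUL to ID6. Among mice numbered 200 and above both comparisons with ID6 were smaller, at 0.098 (adjusted p = 0.734) from LAC and 0.17 (adjusted p = 0.714) from NUL. The ratio of Apoe to Apoa2 TPM was 2.12 ± 0.281 in ID6, against 1.22 ± 0.266 in NUL and 1.09 ± 0.228 in LAC. It also differed by animal number, and ID6 held only mice numbered 200 and above. In mice numbered under 200, then 200 and above, its mean was 0.977 and 1.403 in NUL and 0.883 and 1.292 in LAC. The gap between ID6 and the other stages was therefore smaller among mice numbered 200 and above, and it was not tested.

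Apob, the one protein that every very low density lipoprotein particle holds as a single copy, was the steadiest of the 10. It had a lowest, median and highest value of 643, 806 and 854 TPM in NUL, 638, 712 and 854 TPM in LAC, and 631, 710.3 and 787 TPM in ID6. These ranges nearly coincide. The log2 fold change was −0.11 (95% interval −0.27 to 0.06, adjusted p = 0.451) from NUL to LAC, −0.02 (−0.19 to 0.15, adjusted p = 0.890) from LAC to ID6 and −0.12 (−0.29 to 0.04, adjusted p = 0.320) from NUL to ID6. Among mice numbered 200 and above ID6 differed from LAC by 0.016 (adjusted p = 0.941), where the sign turned, and from NUL by −0.10 (adjusted p = 0.728). The coefficient of variation over all 19 mice was below that of each of the other 9 genes, at 9.52%.

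Apoc3 and Apoa4, neighbours on chromosome 9, differed between the ranges of animal number and passed in no comparison of stages. Apoc3 had 8531 ± 1357 TPM in NUL, 8337 ± 1453 TPM in LAC and 9281 ± 928 TPM in ID6, with adjusted p of 0.906, 0.372 and 0.523 for LAC against NUL, ID6 against LAC and ID6 against NUL. In mice numbered under 200 it was at 6604, 7294 and 7664 TPM in NUL and 6926, 6996 and 7341 TPM in LAC. In mice numbered 200 and above it was at 9038 to 10352 TPM in NUL, at 9149.8, 9172 and 10439.7 TPM in LAC and at 8310.3 to 11030 TPM in ID6. The ranges did not overlap within either NUL or LAC. How many of all genes were as fully separated with so few mice was not counted, and 25.6% of all genes differed between the ranges. Among mice numbered 200 and above the log2 fold change of Apoc3 was −0.050 from LAC to ID6 (adjusted p = 0.7995) and −0.043 from NUL to ID6 (adjusted p = 0.908).

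Apoa4, a protein of intestinal and hepatic lipoproteins, had the widest spread of the 10, a coefficient of variation of 50.8% over the 19 mice. In mice numbered under 200 it was at 87.05, 129.6 and 183 TPM in NUL and at 118, 138 and 164 TPM in LAC. In mice numbered 200 and above it was at 239, 387, 395 and 604 TPM in NUL, at 502, 506 and 569.9 TPM in LAC and at 342 to 614 TPM in ID6. The log2 fold change from LAC to ID6 was 0.80 (SE 0.46, adjusted p = 0.223) over all mice and −0.16 (adjusted p = 0.725) among mice numbered 200 and above, where the sign turned. From NUL to LAC it was 0.17 (SE 0.44, adjusted p = 0.867) and from NUL to ID6 0.97 (SE 0.44, adjusted p = 0.181), or 0.29 (adjusted p = 0.680) among mice numbered 200 and above. Markers of small intestine, which also makes Apoa4, were low: 2 of 10 were at 0 TPM in every mouse and 7 had a mean under 1 TPM. Their summed level, mostly Fabp2, was 159 to 181 TPM in NUL mice numbered under 200 and 69.9 to 127 TPM in the other NUL mice. The part of intestine in the level of Apoa4 was not tested. Apoa4 shares 632 exonic bases with the antisense model Gm10680, which was at 0 to 0.32 TPM, and 634 with Gm47528, a model on the same opposite strand whose level was not analysed here.

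With stage in the fit, 4 of the 10 genes differed between the ranges of animal number among the 13 NUL and LAC mice, against 25.6% of all genes (16.5% higher and 9.11% lower at 200 and above). Apoa4 was higher by 1.74 on the log2 scale at 200 and above (SE 0.20, adjusted p = 6.51e-05) and Apoc3 by 0.42 (SE 0.07, adjusted p = 9.03e-04). Apom fell by 0.52 (SE 0.07, adjusted p = 3.16e-04), from 377 to 259 TPM in NUL and from 396 to 284 TPM in LAC. Apoa2 fell by 0.30 (SE 0.09, adjusted p = 0.0283), a call lost without any 1 of 6 mice, with adjusted p of 0.0507 to 0.0710. Apoe, at 37533 against 41817 TPM in NUL and 28495 against 35596 TPM in LAC, was higher by 0.23 (SE 0.09, adjusted p = 0.0809). The summed Kupffer cell and macrophage markers were 215 to 273 TPM in NUL mice numbered under 200 and 342 to 406 TPM in the other NUL mice, and 146 to 211 and 214 to 289 TPM in LAC, and their part in this was not tested. The lactation response itself differed between the ranges for 0 of the 10 genes in limma, where it did for 0.111% of all genes, and 0 of the 10 had an unadjusted p under 0.05 in that test. What the animal number marks cannot be told from the labels, and the difference between ranges could not be measured in ID6, which had 0 mice under 200.

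**Figure D5:**
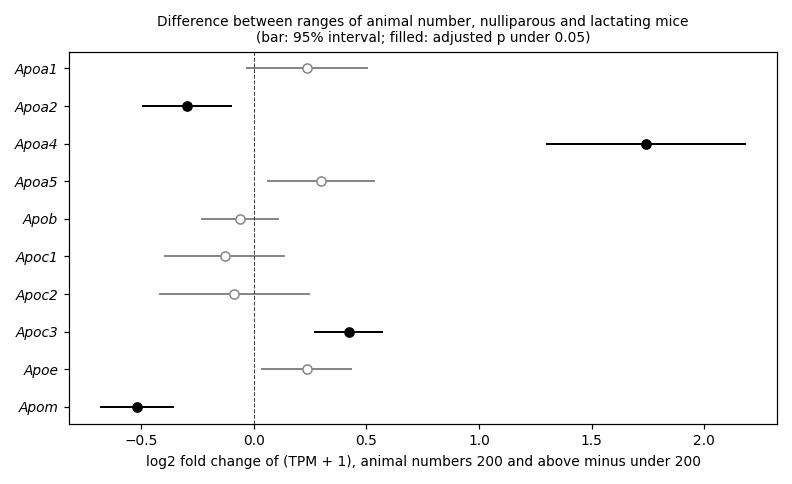
Log2 fold change of (TPM + 1) with its 95% interval (x axis) between mice numbered 200 and above and mice numbered under 200, with stage in the fit over 13 NUL and LAC mice, for each of the 10 genes (y axis); filled points passed an adjusted p of 0.05. Apoa4 (1.74) and Apoc3 (0.42) lie to the right of 0, Apom (−0.52) and Apoa2 (−0.30) to the left.

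Across the 19 mice the levels of Apoa4 and Apoc3 followed each other (Pearson r of log2(TPM + 1) 0.91, and 0.59 after the mean of each stage and range was subtracted). Those of Apoa4 and Apom ran opposite (−0.90, and −0.68 after subtraction). For Apoc1 and Apoc2 the correlation was −0.04 over all mice and 0.71 after subtraction, so these neighbours varied together among mice of one kind while their stage means moved apart. These are descriptions over mice that share stages and the scaling to a fixed total. Among 11604 genes whose mean reached 1 TPM, the patterns most like that of Apoe were H2-D1 (r = 0.97), Cfb (0.97) and Igbp1 (0.96), and the most like Apoa5 were Ctsh (0.91), Atoh8 (0.91) and Lect2 (0.90). Apoa4 was matched best by Igsf8 (0.93), Setd7 (0.93) and Unc119 (0.93), Apom by Aldh1a1 (0.92), Pgrmc1 (0.92) and Slc25a17 (0.92), and Apoa2 by Car3 (0.92), Pex16 (0.91) and Suox (0.91). For Apoc3 Apoa4 itself ranked second (0.91), after AC158595.1 (0.91) and before Sh3bgrl (0.90). The best matches were looser for Apoc1 (Dazap2 0.87, Gm45083 0.87, Mrpl14 0.86), Apob (Trp53i13 0.84, Tmem56 0.69, Eva1a 0.69), Apoc2 (Capn10 0.82, AC133183.1 0.78, Gm10252 0.78) and Apoa1 (Cad 0.77, Dhx40 0.77, Cfi 0.77). After the mean of each stage and range was subtracted, r was lower for most of these matches: 0.24 to 0.37 for the 3 of Apom, 0.096 to 0.56 for those of Apoa2, 0.34 to 0.49 for those of Apoa4, 0.44 to 0.69 for those of Apoa5 and 0.67 to 0.77 for those of Apoe, but 0.77 to 0.90 for those of Apoc1.

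A further list of 7 genes, 6 of them tested, held other apolipoproteins and Apobr, a macrophage receptor for Apob. From LAC to ID6 each of the 6 rose, where 18.1% of all genes did: Apof by 0.57 on the log2 scale (SE 0.14, adjusted p = 0.00558), Apon by 0.55 (SE 0.10, adjusted p = 4.31e-04), Apoc4 by 0.51 (SE 0.09, adjusted p = 4.25e-04), and Clu, Apoh and Apobr by 0.40, 0.34 and 0.31. Of the 6, 4 passed among mice numbered 200 and above, where 14.1% of all genes did in either direction. Apof (0.27, adjusted p = 0.0551) and Apoh (0.17, adjusted p = 0.216) did not. With median-ratio scaling 3 passed, where 16.2% of all genes did. Clu (0.25, adjusted p = 0.169), Apoh (0.18, adjusted p = 0.259) and Apobr (0.24, adjusted p = 0.132) did not. From NUL to LAC 3 of the 6 fell, where 6.49% of all genes did: Apon by 0.58, Apof by 0.51 and Apoc4 by 0.44, the last of which missed the threshold among mice numbered 200 and above (−0.40, adjusted p = 0.0741). Between ID6 and NUL 0 of the 6 changed in limma, where 4.36% of all genes did. An unadjusted p under 0.05 was found for 0 of the 6 and for 4077 of the 16230 genes tested. Apoc4, which lies between Apoc2 and Apoc1, thus fell in lactation while Apoc2 beside it had a higher mean, 492 ± 65.7 against 401 ± 95.9 TPM.

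Of 82 tested genes of lipoprotein assembly, uptake, lipolysis and control, those 6 among them, 7 rose and 10 fell from NUL to LAC, 25 rose and 9 fell from LAC to ID6, and 8 were higher and 1 lower in ID6 than in NUL. These are 20.7%, 41.5% and 11% of the list, against 9.21%, 22.8% and 4.36% of all genes. The counts among mice numbered 200 and above were 5 and 9, 17 and 8, and 3 and 2. These are 17.1%, 30.5% and 6.1% of the list, against 7.07%, 14.1% and 0.819% of all genes in that fit. With median-ratio scaling the counts were 7 and 8, 12 and 13, and 4 and 2. These are 18.3%, 30.5% and 7.32% of the list, against 9.16%, 16.2% and 2.44% of all genes. Over all genes the same scaling moved the share of calls that were higher from 79.3% to 52.0% between LAC and ID6, from 29.5% to 45.5% between NUL and LAC and from 79.1% to 42.7% between NUL and ID6. It moved the median of all genes from 0.10 to 0.0015 on the log2 scale in the first of these. Under that scaling Apoe (LAC to ID6), Apoa5 (both comparisons with LAC), Apoc2 and Apom still passed, each in the same direction.

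The genes that changed 2-fold or more included Lpl and Pltp, which act on the particles. Lpl, lipoprotein lipase, which adult liver holds at a low level, rose from 4.74 ± 3.02 TPM in NUL to 33.6 ± 21.7 TPM in LAC (log2 2.54, SE 0.34, adjusted p = 1.63e-04) and was at 24.9 ± 3.80 TPM in ID6 (2.33 above NUL, adjusted p = 0.00104, and 1.99 above it among mice numbered 200 and above, adjusted p = 0.00638). Lpl was also 1.07 higher at 200 and above than under 200 in NUL and LAC mice (adjusted p = 0.0146). Pltp, the phospholipid transfer protein, rose by 1.71 in LAC (adjusted p = 6.16e-05) and fell by 1.34 in ID6 (adjusted p = 1.75e-04). Lipc, hepatic lipase, fell by 0.48 (adjusted p = 0.00208) and rose by 0.70 (adjusted p = 3.75e-05), and the fall was not called among mice numbered 200 and above (−0.32, adjusted p = 0.0953). Lipg, endothelial lipase, fell by 0.89 from LAC to ID6 (adjusted p = 0.00583), to 1.35 ± 0.493 TPM, and missed the threshold among mice numbered 200 and above (−0.53, adjusted p = 0.0801). Of the lipolysis list of 7 genes, 2 rose from NUL to LAC (28.6%) and 1 fell from LAC to ID6 (14.3%). Of the 11 HDL genes 2 rose and 2 fell (36.4%), then 6 rose and 3 fell (81.8%). Over all genes the shares were 9.21% and 22.8%. Among mice numbered 200 and above, 2 lipolysis genes rose and 2 fell (57.1%), then 1 rose and 1 fell (28.6%). Of the HDL genes 1 rose and 2 fell there (27.3%), then 4 rose and 1 fell (45.5%), against 7.07% and 14.1% of all genes. With median-ratio scaling 4 HDL genes rose and 3 fell from LAC to ID6 (63.6%), against 16.2% of all genes.

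The sterol transporters Abcg5 and Abcg8 rose from LAC to ID6 by 0.94 (adjusted p = 3.13e-05) and 0.99 (adjusted p = 3.80e-05), as did Abcg1 by 0.80 (adjusted p = 3.13e-05), and Scarb1, the HDL receptor, by 0.42 (adjusted p = 0.0199), a call lost with median-ratio scaling (0.26, adjusted p = 0.110). Abca1, which lipidates Apoa1, rose by 0.47 from NUL to LAC (adjusted p = 0.0311), which was not called among mice numbered 200 and above (0.29, adjusted p = 0.365). Lcat, which esterifies HDL cholesterol and is activated by Apoa1, rose by 0.18 from LAC to ID6 (adjusted p = 0.0442), a call lost among mice numbered 200 and above (0.23, adjusted p = 0.0525) and with median-ratio scaling (0.024, adjusted p = 0.853). Lrp1, a remnant receptor that binds Apoe, was at 136, 137 and 136 TPM in NUL, LAC and ID6 (log2 fold change −0.01 from LAC to ID6, adjusted p = 0.984).

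For assembly of Apob particles, Mttp, which loads lipid onto Apob, rose by 0.28 from NUL to LAC (adjusted p = 0.0135, and 0.174 among mice numbered 200 and above) and fell by 0.37 from LAC to ID6 (adjusted p = 0.00105). Apobec1, which edits Apob transcripts, rose by 0.51 from LAC to ID6 (adjusted p = 0.00473). Cideb, which lipidates the particles, fell by 0.34 from NUL to LAC (adjusted p = 4.91e-04) and rose by 0.21 from LAC to ID6 (adjusted p = 0.0101, and 0.692 with median-ratio scaling). The log2 fold change from LAC to ID6 was −0.27 for Tm6sf2, 0.18 for Surf4 and 0.19 for Sort1, with adjusted p of 0.164, 0.284 and 0.111. Of 18 genes in this list 1 rose and 2 fell in LAC, which is 16.7% of them against 9.21% of all genes. After weaning 5 rose and 2 fell, 7 of 18 against 22.8%. Among mice numbered 200 and above 0 rose and 1 fell in LAC, 5.56% against 7.07% of all genes. In those mice 3 rose and 2 fell after weaning, 27.8% against 14.1%.

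Of 29 transcription factors known to act on apolipoprotein genes, 0 rose and 1 fell from NUL to LAC, and 5 rose and 1 fell from LAC to ID6. These shares, 3.45% and 20.7%, were below and near the 9.21% and 22.8% of all genes. Nr1h3, the liver X receptor alpha, known to act on the Apoe cluster, rose by 0.34 from LAC to ID6 (adjusted p = 0.00345), and Srebf1, a sterol regulatory factor, rose by 0.91 (adjusted p = 0.0340) and was 1.51 higher than in NUL (adjusted p = 0.00865). Neither difference of Srebf1 passed among mice numbered 200 and above (0.59 from LAC, adjusted p = 0.126, and 0.96 from NUL, adjusted p = 0.0685). Srebf1 was also 0.97 higher in that range than under 200 in NUL and LAC mice (adjusted p = 0.00389). Srebf2 fell by 0.52 (adjusted p = 0.00679). For Hnf4a, which drives many hepatic apolipoprotein genes, the log2 fold change was 0.28 from LAC to ID6 (adjusted p = 0.216) and 0.48 from NUL to ID6 (adjusted p = 0.0701). Ppara, Creb3l3, Nr1h4 and Foxo1 did not pass in any comparison, and their log2 fold changes from NUL to LAC were −0.45, −0.30, 0.05 and −0.09. These are transcript levels of the factors, and their effect on the 10 genes was not measured.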

How the data were processed

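The authors isolated total RNA from flash frozen caudate lobes, prepared poly(A)-enriched libraries and sequenced them in pairs on a NovaSeq instrument. They mapped the reads on GRCm38, ran RSEM 1.3.1 for each gene, and deposited the TPM of every mouse, rounded to 2 decimals. RSEM divides reads that several genes share by expectation maximization. TPM sum to 1000000 per mouse and keep no depth, so only the spread between mice shows the precision of a value. From the TPM, log2(TPM + 1) was tested with limma 3.58.1 (trend, all 19 mice, 1 mean per stage) in R 4.3.3 over the 16230 entries with a mean of at least 0.1 TPM, with Benjamini-Hochberg adjustment over all of them. A gene changed at an adjusted p under 0.05. Fold changes are on the log2(TPM + 1) scale and understate those of low genes. The count test of the authors, DESeq2, was not repeated, since TPM are not counts. The fit of stages was also run on simulated data. These held no difference between the ranges of animal number, so that run cannot show how the fit behaves with such a difference. Values, ratios, correlations and figures were computed with Python 3.11.15, numpy 2.4.6, pandas 2.3.3 and matplotlib 3.10.9. Each mouse is 1 labelled animal, and of 171 pairs of mice 0 had identical values.

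Named genes were the 10 members, every one in every stage, and, of the lipoprotein lists, those that changed 2-fold or more, the 5 others with the smallest p and a set of factors, assembly and clearance genes given whatever they did; some genes that this rule names, and the counts of the receptor and clearance list, are not reported here. Likeness was Pearson r over 19 mice. The members and lists were chosen with earlier results of these data known. Alternatives were a pseudocount of 0.1, a mean of at least 1 TPM or no filter, 3 other scalings, only the stages compared, the range of animal number as a covariate, mice numbered 200 and above, robust moderation and each mouse left out.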

Additional observations from a re-analysis of the deposited data

Results flagged for a closer look

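Of 30 groups (10 genes in 3 stages), 1 had a sample far from the others. Apoc3 in mouse ID6_201 was at 11030 TPM, and the next mouse was at 9264 TPM, so the gap took 0.649 of the range of the group. About 1 in 20 groups shows such a gap by chance. The same mouse had the highest Apoe (61492 TPM) and Apoa4 (614 TPM) of its stage and the lowest Apoc2 (282 TPM).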

How the results depend on the processing

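Of the 10 alternatives besides leaving out a mouse, each kept the fall of Apoa5 from NUL to LAC (−0.72 to −0.65, adjusted p 2.37e-04 to 0.00938) and the rises of Apoa5 (0.58 to 0.78, adjusted p 2.43e-04 to 0.00409) and Apoe (0.63 to 0.84, adjusted p 6.52e-06 to 0.0283) from LAC to ID6. The number of the 10 genes that changed from NUL to LAC was 2 with a mean of at least 1 TPM, with the range of animal number in the fit and with robust moderation. From LAC to ID6 it was 3 with no filter, with the range in the fit and among mice numbered 200 and above. Between ID6 and NUL it was 2 with a mean of at least 1 TPM and with robust moderation, and 0 with no filter, median-ratio scaling, the range in the fit and mice numbered 200 and above. Without 1 mouse in turn it ran from 0 to 2 in that comparison, being 0 without NUL_1, NUL_13, ID6_201, ID6_209, ID6_216 or ID6_232 and 2 without NUL_227, and from 4 to 5 from LAC to ID6, and it stayed at 1 from NUL to LAC. Lipoprotein pathway genes changed numbered 11 from NUL to LAC with only the 2 stages fitted (17 with all) and 5 between ID6 and NUL among mice numbered 200 and above (9 with all), and from 5 (without NUL_13) to 15 (without NUL_227) with a mouse left out.

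Every value that turned sign belonged to a difference that passed neither before nor after. With median-ratio scaling these were Apoc3 from NUL to LAC (0.0069), Apoa1 from LAC to ID6 (−0.0068) and Apoa5 from NUL to ID6 (−0.071), and with quantile normalization Apoa2 from NUL to LAC (0.083) and Apob between the ranges (0.010). With TPM rescaled without the 10 genes it was Apob from LAC to ID6 (0.026). With the range in the fit they were, from LAC to ID6, Apoa4 (−0.070), Apob (0.012) and Apoc3 (−0.043), and from NUL to ID6 Apoa5 (−0.088) and Apoc3 (−0.048). Among mice numbered 200 and above they were Apoc3 from NUL to LAC (0.0064), Apoa4 (−0.16), Apob (0.016) and Apoc3 (−0.050) from LAC to ID6, and Apoa5 (−0.098) and Apoc3 (−0.043) from NUL to ID6. With a mouse left out, Apoa4 from NUL to LAC ran from −0.072 to 0.41, Apoc3 from −0.10 to 0.015, Apob from LAC to ID6 from −0.056 to 0.028 and Apoa5 from NUL to ID6 from −0.024 to 0.093. The cause of these changes, and of the calls lost beside each gene, was not tested. The fits of the other lipoprotein genes among mice numbered 200 and above and with median-ratio scaling were chosen after the data were seen. Quantile normalization gives the top ranked genes nearly the same values in each mouse, which by its construction bounds Apoe and Apoa2. No paired analysis was possible because the stages share 0 animal numbers. TPM carry no depth, so only the spread over 6 or 7 mice shows how precise a stage mean is. Differences that are small beside that spread may have been missed.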
